A study of Mus musculus with 2 samples.

Results

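The regions described here are the EHMT2 binding sites of mouse chromosome 1 that the study placed in its clusters K3 and K4, together with the ATAC-seq peaks found at them. All chromosome 1 intervals listed under K3 or K4 in the study's table of EHMT2 sites were taken, with 1 site per start and end. They numbered 1446, of which 1187 were K3 and 259 were K4, out of 1711 EHMT2 sites on this chromosome. The copy of that table used here is shortened to 1999 rows. Its chromosome 1 rows were complete, because no peak number was missing in any kind of EHMT2 peak and the next number of each kind opened chromosome 2. A site was counted as having an ATAC-seq peak when a deposited peak reached to within 250 bp of its EHMT2 summit, and 733 of the 116782 deposited peaks were matched in this way. Of the 9227 deposited peaks on chromosome 1, the median peak had a fold enrichment of 3.91 over its local background and rested on 9 fragments.

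ATAC-seq reads open chromatin by where the transposase Tn5 can insert, and it was run on EHMT2-dTAG-mcherry mESCs of the BL6/129 hybrid background. In these cells the endogenous Ehmt2 gene carries a degron, 2 HA tags and an mCherry reporter. Cells of 2 independent clones received the vehicle DMSO for 24 h and no dTAG, so EHMT2 was present in every sample, and 50000 cells per clone were used. Cultures were grown in medium with FBS and LIF on feeder cells, which were mouse embryonic fibroblasts treated with mitomycin C. The deposited list was called on both clones merged, so no value below has a spread between replicates, no comparison has a test, and every difference is a description of this 1 list. A low peak in such bulk data may come from few open cells or from weak opening in many, and these cannot be told apart. As a check of the label, 4 of 5 pluripotency genes had an ATAC-seq peak with its summit within 500 bp of their start, namely Pou5f1, Sox2, Nanog and Zfp42 with fold enrichments of 2.83, 5.22, 4.12 and 15.9, and Tdgf1 had none. Of 5 fibroblast genes examined for feeder cells, Thy1 and Prrx1 had one, with fold enrichments of 5.45 and 2.68, while Col1a1, Col1a2 and Twist2 had none. Thy1 thus stood above 3 of the 4 pluripotency genes with a peak, and Prrx1 below all 4. The part of such cells in the results was not tested.

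EHMT2, also known as G9a, is a histone methyltransferase that places mono- and dimethylation on lysine 9 of histone H3, a mark of silenced chromatin. It has no sequence-specific DNA-binding domain of its own, and the zinc finger protein ZFP462 and WIZ are partners reported to recruit it. EHMT2 silences both transposable elements and developmental genes. In the study's clustering, K1 and K2 are the DPPA2/4-bound sites, K3 the sites without any of the tested partners, and K4 the sites with ZFP462 and the pluripotency factors OCT4 and KLF4. The same clustering used ATAC-seq signal within 250 bp of each summit, from these cells, and the EHMT2 signal. The difference in ATAC-seq between K3 and K4 is therefore in part built into the clusters and supports nothing by itself. What the clustering did not use is sequence, copy number, base composition, position and gene context, and most of the account below concerns these. Where K3 sites are grouped by what they share with K1 or K2 sites, the clusters enter again through K1 and K2.

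The sequences of a few sites show what lies under the summits. All are read on the plus strand of mm10 (GRCm38), and for the first group no capitals are used, since none of the 8 motifs searched lay in them. They span the EHMT2 summit and 50 bp to each side, at the K4 site of highest fold enrichment, the highest K4 site away from gene starts, the K4 site farthest from any ATAC-seq peak, the K3 site of highest fold enrichment and the K3 site farthest from any peak.
K4 near Gorab, chr1:163403895-163403995: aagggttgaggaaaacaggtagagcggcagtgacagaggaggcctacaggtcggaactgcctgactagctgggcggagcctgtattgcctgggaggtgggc
K4 in Rims1, chr1:22466767-22466867: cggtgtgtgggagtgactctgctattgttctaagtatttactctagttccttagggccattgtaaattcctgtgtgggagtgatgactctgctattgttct
K4 without a peak, chr1:73782964-73783064: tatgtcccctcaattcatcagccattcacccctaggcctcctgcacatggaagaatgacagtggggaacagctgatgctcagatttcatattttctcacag
K3 highest, chr1:44903560-44903660: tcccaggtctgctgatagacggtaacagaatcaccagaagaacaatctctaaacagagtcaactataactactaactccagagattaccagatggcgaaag
K3 without a peak, chr1:41679778-41679878: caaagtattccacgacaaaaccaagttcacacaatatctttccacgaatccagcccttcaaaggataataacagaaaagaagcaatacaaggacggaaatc

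The next sequences show the repeated DNA that divides the K3 sites. The first is the K3 site that shared the most sequence with a K1 or K2 window over 5 kb away, the second is that K2 window, and in both the capitals mark bases lying in a 31-base stretch that the 2 windows have in common. The third is the K3 window with the most neighbours in the largest family of K3 windows that holds no K1 or K2 window, with capitals for the bases in 31-base stretches found in another window of the family.
K3 sharing with K2, chr1:126792554-126792654: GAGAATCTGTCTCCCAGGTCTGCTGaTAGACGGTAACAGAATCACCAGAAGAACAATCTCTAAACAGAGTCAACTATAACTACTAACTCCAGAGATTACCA
K2 partner, chr1:27755542-27755642: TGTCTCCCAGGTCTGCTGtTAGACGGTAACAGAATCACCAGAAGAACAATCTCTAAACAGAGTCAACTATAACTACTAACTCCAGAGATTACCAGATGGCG
K3 of the largest separate family, chr1:54957895-54957995: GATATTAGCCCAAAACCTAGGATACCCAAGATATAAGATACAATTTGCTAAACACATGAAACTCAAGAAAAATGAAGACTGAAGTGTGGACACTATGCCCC
Of the 471 stretches of 31 bases in the full window around each summit, the K3 and K2 windows had 388 in common. The K3 site of highest fold enrichment belonged to the same repeated sequence, with 362 stretches in common with this K3 window and 338 with the K2 window.

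The last sequences are K4 windows centred on a motif of a pluripotency factor, in capitals, at the K4 site of highest fold enrichment that held the motif. The Kcnt2 window also holds a further match to the KLF motif, gggggtgg, left in lower case.
POU octamer near Mff, chr1:82724614-82724714: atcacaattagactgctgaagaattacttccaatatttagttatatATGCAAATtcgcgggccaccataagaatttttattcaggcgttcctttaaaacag
ESRRB motif near Bard1, on the minus strand, chr1:71103621-71103721: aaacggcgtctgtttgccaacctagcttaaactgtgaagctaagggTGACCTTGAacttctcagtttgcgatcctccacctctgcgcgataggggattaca
KLF motif in Kcnt2, chr1:140429585-140429685: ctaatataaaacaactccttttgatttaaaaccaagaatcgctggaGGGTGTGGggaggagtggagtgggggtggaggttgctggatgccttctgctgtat

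An ATAC-seq peak lay at nearly every K4 site and at fewer than 1 in 2 K3 sites. Of the 259 K4 sites, 237 (91.5%) had a peak and 22 had none. Of the 1187 K3 sites, 540 (45.5%) had a peak and 647 had none. All 93 K1 and all 172 K2 sites had one, so that 1042 of the 1711 EHMT2 sites of the chromosome (60.9%), whatever their cluster, and 777 of the 1446 K3 and K4 sites (53.7%) lay at a peak. Among 383003 windows of the same length that tile the sequenced part of chromosome 1, 5.55% overlapped a deposited peak. Since ATAC-seq signal was an input of the clusters, the K3 and K4 shares are set beside this background without being read against it. Counting only peaks with a −log10 q-value of at least 10, 186 K4 sites (71.8%) and 237 K3 sites (20%) kept one, where the background was 1.51% of windows.

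The peaks were centred on the EHMT2 summits in both clusters. At the EHMT2 summit itself, 88% of K4 sites and 36.8% of K3 sites lay inside a peak, compared with 3.15% of all sequenced bases of the chromosome. At 500 bp from the summit the shares were 33.4% and 16.1%, and at 1000 bp they were 8.69% and 5.05%. At 2000 bp they had reached 3.28% for K4 and 2.74% for K3, close to the chromosome's own share. At 5000 bp they were 5.02% and 2.65%, and at 10000 bp 6.37% and 2.99%. The opening seen in the list was thus local at K3 sites, and around K4 sites the coverage at 5000 and 10000 bp was somewhat above that of the chromosome.

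**Figure D1:**
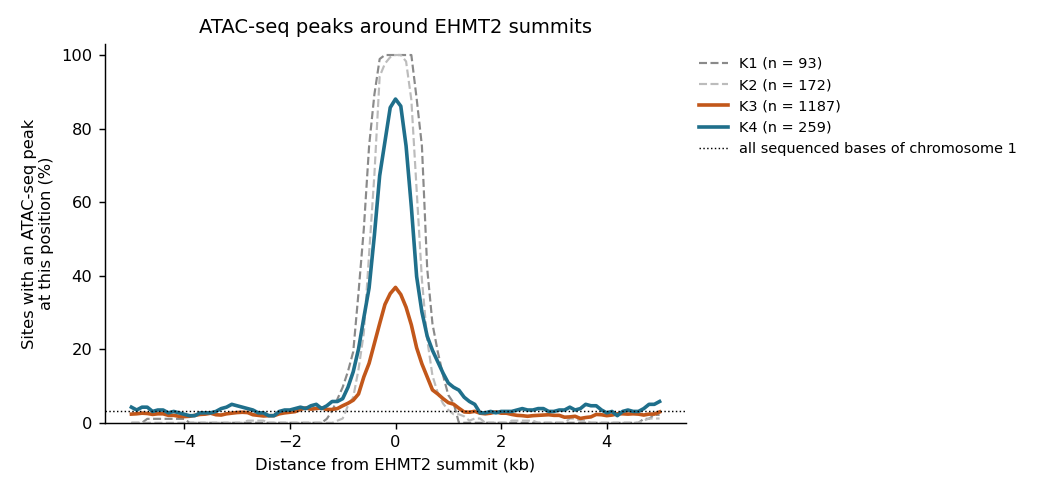
Share of EHMT2 sites that lie inside a deposited ATAC-seq peak (y axis, percent of sites) at each distance from the EHMT2 summit (x axis, kb), for K3 and K4 (solid) and K1 and K2 (dashed), with the share of all sequenced bases of chromosome 1 dotted. At the summit the share was 88% for K4 and 36.8% for K3, and by 2 kb both had come down to about the dotted line of 3.15%.

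The ATAC-seq summit stood closer to the EHMT2 summit at K4 than at K3 sites. The median distance between the summits was 97 bp at the 237 K4 sites with a peak (quartiles 47 and 206 bp) and 179 bp at the 540 K3 sites (quartiles 80 and 307.5 bp). Within 100 bp lay 120 of the K4 sites (50.6%) and 163 of the K3 sites (30.2%), and within 250 bp 194 (81.9%) and 357 (66.1%). The ATAC-seq summit had the higher coordinate at 127 K4 and 277 K3 sites, so neither side was preferred in the counts. The EHMT2 summit fell inside the peak at 228 of the 237 K4 sites and at 437 of the 540 K3 sites.

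**Figure D2:**
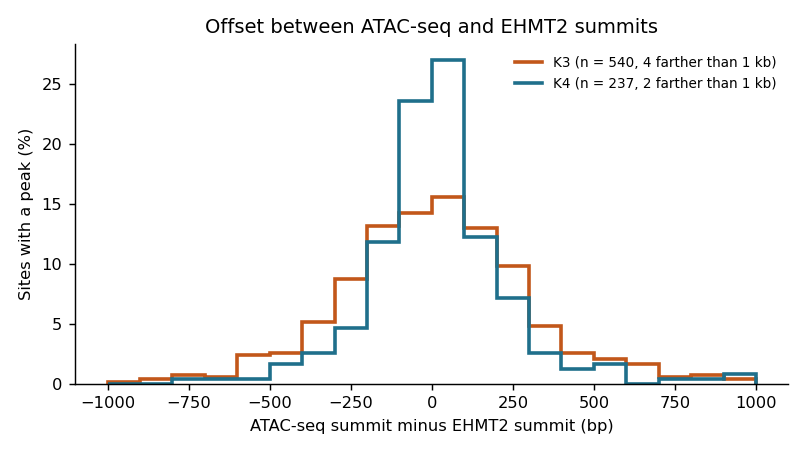
Histogram of the ATAC-seq summit position minus the EHMT2 summit position (x axis, bp, in steps of 100 bp) as percent of the K3 or K4 sites with a peak (y axis). The K4 outline is the narrower, with 50.6% of sites within 100 bp of 0, compared with 30.2% for K3.

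Some sites shared a peak. The 540 K3 sites lay on 502 different peaks, with 74 sites on a peak that served another K3 site too, and the 237 K4 sites lay on 235. Between clusters, 31 K3 sites lay on a peak that also served a site of another cluster, 27 of them a K1 or K2 site and 4 a K4 site. Without them 509 of 1156 K3 sites had a peak (44%), with a median fold enrichment of 6.07. The peaks at K4 sites had a median width of 885 bp and those at K3 sites 753 bp, while the median over chromosome 1 was 580 bp.

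Peaks at K3 sites were lower and rested on fewer fragments. The fold enrichment at K3 sites with a peak ran from 2.22 to 20 with a median of 6.30 (quartiles 4.31 and 8.79), and at K4 sites from 2.90 to 24.5 with a median of 8.96 (quartiles 6.44 and 11.4). The median was 9.87 at K1 and 10.2 at K2 sites. In fragments over the summit, the K3 median was 15 with a range of 6 to 96, and the K4 median was 32 with a range of 6 to 199. Peaks of at most 9 fragments made up 27.8% of the K3 sites with a peak (150 sites) and 2.11% of the K4 sites (5 sites). Above the upper quartile of all deposited peaks, a fold enrichment of 6.01, stood 292 of the 540 K3 sites (54.1%) and 187 of the 237 K4 sites (78.9%). The ranges of the clusters overlapped almost entirely. The lowest deposited peaks of the chromosome also had 6 fragments, so the weakest K3 and K4 peaks stood at the lower end of what was called.

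**Figure D3:**
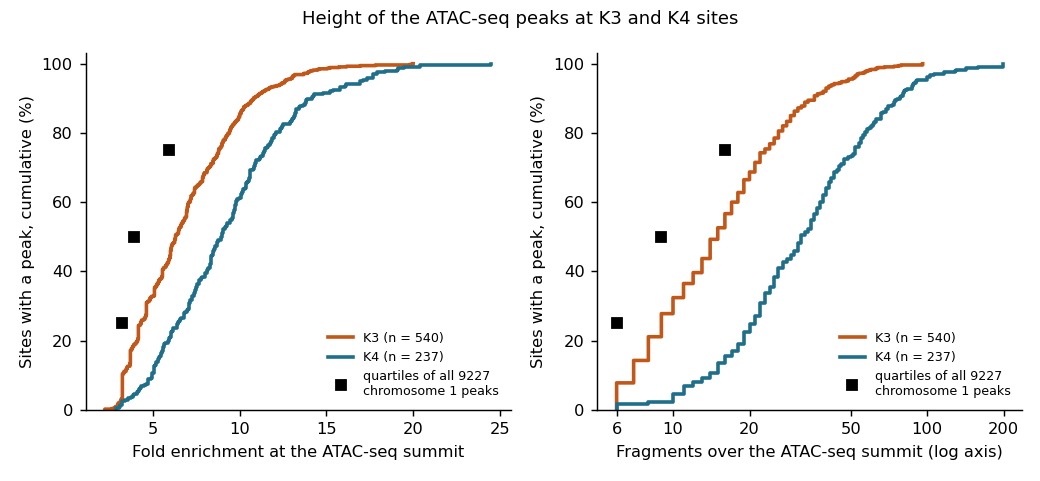
Cumulative percent of sites with a peak (y axis) against fold enrichment (left x axis) and against the number of fragments over the ATAC-seq summit (right x axis, log scale), for 540 K3 and 237 K4 sites, with squares at the quartiles of all 9227 chromosome 1 peaks. The K4 curve lies to the right of K3 over nearly the whole range, with medians of 8.96 and 6.30 in fold enrichment and of 32 and 15 fragments.

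The K4 sites of highest fold enrichment were 3 gene starts and 3 introns. The highest lay 276 bp from the start of Gorab, a Golgi protein gene, at a fold enrichment of 24.5 from 198 fragments (95% Poisson interval 171 to 228, counting error only, here and below). The site 122 bp from the start of Mff, whose product recruits the fission machinery to mitochondria, had 20.4 from 90 fragments (72.4 to 111). The site 135 bp from the start of Gdap1, another gene of mitochondrial dynamics, had 19.5 from 66 fragments (51.0 to 84.0). These 3 windows contained 52.3%, 50.3% and 57.9% G and C.
The other 3 of the 6 highest K4 sites lay inside genes, far from their starts. A site in an intron of Rims1, which encodes a scaffold of the presynaptic active zone, 339177 bp from the start, had 19.1 from 69 fragments (53.7 to 87.3). A site in an intron of the potassium channel gene Kcnt2 had 19.1 from 116 fragments (95.9 to 139). A site in an intron of Dnah7a, a dynein heavy chain gene, had 18.4 from 82 fragments (65.2 to 102). At these 3 the ATAC-seq summit was 41, 19 and 102 bp from the EHMT2 summit.

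The 6 highest K3 sites lay mostly between genes, and only 1 was at a gene start. The highest, at chr1:44903560-44903895 and known from ChIP-exo alone, had a fold enrichment of 20 from 53 fragments (39.7 to 69.3), and its nearest protein-coding start, that of Gulp1, was 352099 bp away. Only 19.4% of the 100-base stretches in its window occurred once in the genome, and the median stretch had 1694 copies. The second, at chr1:142358399-142358891, had 19.8 from 68 fragments (52.8 to 86.2), again with 18.9% of its stretches found once. The fifth, at chr1:19799755-19799957, had 16.2 from 63 fragments (48.4 to 80.6) and 33.8% of its stretches found once. Fragments that matched several copies equally well were written at 1 of them at random, so the values of these 3 sites describe a set of copies as much as the site.
The remaining 3 were single-copy throughout. A site 31315 bp from the start of Prg4, which encodes the joint lubricant lubricin, had 17.8 from 96 fragments (77.8 to 117), and a site 76062 bp from Alkal1, which encodes a ligand of the kinases ALK and LTK, had 16.9 from 79 fragments (62.5 to 98.5). At the latter the EHMT2 summit was 46 bp outside the peak, which also served a K4 site. The site 298 bp from the start of Taf1a, which encodes a subunit of the RNA polymerase I factor SL1, had 15.7 from 60 fragments (45.8 to 77.2).

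At the other end, the K3 site with the fewest fragments, in an intron of the neural transcription factor gene St18, had a fold enrichment of 3.24 from 6 fragments. The corresponding K4 site, in an intron of Agfg1, had 3.13 from 6 fragments. The members nearest to the limit of the 250 bp window were, on the inside, K3 sites 248 and 245 bp from their peaks, in D2hgdh and between genes near Lyplal1, with fold enrichments of 10 and 13.0 on peaks that also served a K2 and a K4 site, and K4 sites 104 and 99 bp from theirs, near Dyrk3 and in Dst, with 8.97 and 3.73. Just outside were a K3 site near the start of Gli2 and another near Slco6d1, 272 and 294 bp from the nearest peak, and K4 sites near Atp1b1 and in Epha4, 260 and 263 bp away.

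The sites without a peak differed in how far away the nearest peak was. At the 22 K4 sites it was a median of 1281.5 bp from the EHMT2 summit (range 260 to 38863 bp), with 10 sites within 1000 bp and 20 within 5000 bp of a peak. At the 647 K3 sites it was a median of 7387 bp away (range 272 to 130260 bp), with 63 within 1000 bp and 248 within 5000 bp. The most remote K3 sites were a pair near Tmem182, 130260 and 83527 bp from any peak, and 1 in an intron of Nckap5, 91116 bp from any peak. The most remote K4 sites lay in a transcript near Tns1, between genes near Creb1, and in Capn2, a calpain gene, at 38863, 7159 and 3694 bp.

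K3 and K4 sites were made of different DNA. The measure used for copies was the percent of 100-base stretches in the window that occur once in the genome. Its median was 73.1% at K3 (quartiles 24.6% and 100%) and 100% at K4 (both quartiles 100%). At K1 the median was 0% and at K2 13.3%. Every stretch was single-copy in 443 of the 1187 K3 windows (37.3%), in 226 of the 259 K4 windows (87.3%) and in 87.5% of 3831 background windows examined. No stretch was single-copy in 127 K3 windows (10.7%), 2 K4 windows (0.772%) and 1.44% of background windows. Bases soft-masked as repeats in the reference covered a median of 89.0% of the K3 window, 23.6% of the K4 window and 24.2% of a background window. Completely masked were 466 K3 windows (39.3%), 3 K4 windows (1.16%) and 6.67% of background windows. In single-copy share and median masking the K4 windows were close to the background windows and the K3 windows were not, while completely masked windows were rarer at K4 and more frequent at K3 than in the background.

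Whether a K3 site had a peak varied little with the number of copies as such. Of the 443 single-copy K3 windows 211 had a peak (47.6%), and of the 127 without a single-copy stretch 48 did (37.8%), with 39.6% to 48.7% in the classes between. Fold enrichment went the other way, with a median of 8.06 at the 48 sites without a single-copy stretch and 5.52 at the 211 single-copy ones. The random placement of reads on copies moves with this result, and its part was not tested.

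The share of K3 sites with a peak differed widely with the repeated sequence they belonged to. Windows were joined when they had at least 50 stretches of 31 bases in common and did not overlap. Of 220 K3 windows that had this much in common with a K1 or K2 window, 207 had an ATAC-seq peak (94.1%). Of 397 K3 windows that shared sequence only with other K3 or K4 windows, 91 had one (22.9%). Of the 570 K3 windows that shared with no other, 242 had one (42.5%). The first group had a median fold enrichment of 7.86 from 19 fragments, the second 4.62 from 9 and the third 5.51 from 13. Over 5 kb from any K1 or K2 summit the first group still had 184 of 197 sites with a peak (93.4%). All 11 K3 sites within 500 bp of a K1 or K2 summit and all 15 at 500 to 1000 bp had a peak, compared with 2 of 20 at 1000 to 5000 bp (10%) and 512 of 1141 farther away (44.9%). Every K1 and K2 site had a peak, with median widths of 1249 and 961 bp, so a K3 window this close can touch that same peak. In all, 27 K3 sites lay on a peak of a K1 or K2 site, and the shares within 1000 bp show nothing by themselves. The grouping is not free of the clustering, because K1 and K2 were themselves formed with ATAC-seq signal and every K1 and K2 site had a peak. Reads that match several copies equally well can also be placed on any of them, and the part of either in these shares was not tested.

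The groups were similar in copies but not in base composition. The median percent of single-copy stretches was 28.2% in the K3 windows that share with K1 or K2 and 24.9% in those that share only with K3 or K4, and the median masked share was 100% in both. Median G and C content was 55.6% in the former and 44.1% in the latter. Among windows of at most 45% G and C, 22 of 31 in the former (71%), 32 of 226 in the latter (14.2%) and 125 of 337 that share with none (37.1%) had a peak. Between 45% and 55% the counts were 64 of 68 (94.1%), 59 of 168 (35.1%) and 101 of 197 (51.3%). Above 55% they were 121 of 121, 0 of 3 and 16 of 36 (44.4%). The order of the groups was thus the same in each class. ChIP-exo alone had found 169 of the 220, 346 of the 397 and 213 of the 570, and among these the shares with a peak were 92.3%, 20.2% and 22.1%.

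Within the K3 windows that share sequence only among themselves, several families had hardly any peak. The largest family without a K1 or K2 window had 77 sites, all K3 and all from ChIP-exo alone, of which 2 had a peak (2.6%). When at least 100 stretches were required, the largest such family had 40 sites, of which 1 had a peak. In the family of 77, the windows were masked throughout at the median, with 43.7% G and C. The next families had 31, 30 and 19 sites, of which 2, 4 and 2 had a peak, and 2 families of 13 sites had 1 each. At 2.6% to 13.3%, these shares stand around the 5.55% of all windows of the chromosome. Of the other families, 1 of 14 K3 sites had 10 with a peak, and 1 of 9 K3 and 1 K4 sites had 9, at median fold enrichments of 3.88 and 4.62. Families are named by size only, since no repeat annotation was used here.

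Over all K3 sites the share with a peak rose with G and C content, and that of K4 sites showed no such order. Above 55% G and C most K3 windows were those sharing sequence with K1 or K2 windows, 121 of 121 with a peak. Among K3 windows sharing with no other, the share was 37.1% up to 45%, 51.3% up to 55% and 44.4% above. Among those sharing only with K3 or K4 windows it was 14.2%, 35.1% and 0 of 3. Among K3 windows of at most 35% G and C 7 of 43 had a peak (16.3%), followed by 21.2% up to 40%, 37.7% up to 45%, 45.9% up to 50%, 60.1% up to 55%, 77.3% up to 60% and 79 of 85 (92.9%) above 60%. In background windows the same classes ran from 1.06% through 4.81% at 40% to 45% to 34% at 55% to 60% and 82.1% above 60%. At K4 the share lay between 84.2% and 93.5% in the classes from 35% to 55% G and C and was 100% in the others, which had 1, 8 and 10 sites. Median G and C content was 48.9% at K3 sites with a peak and 42.9% at those without, and 45.9% and 44.5% at K4 sites. CpG dinucleotides per 100 bp had medians of 1.70 and 0.798 at K3 sites with and without a peak, and of 0.798 and 0.699 at K4. Amplification and Tn5 cutting can depend on base composition, and their part in this was not tested.

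**Figure D4:**
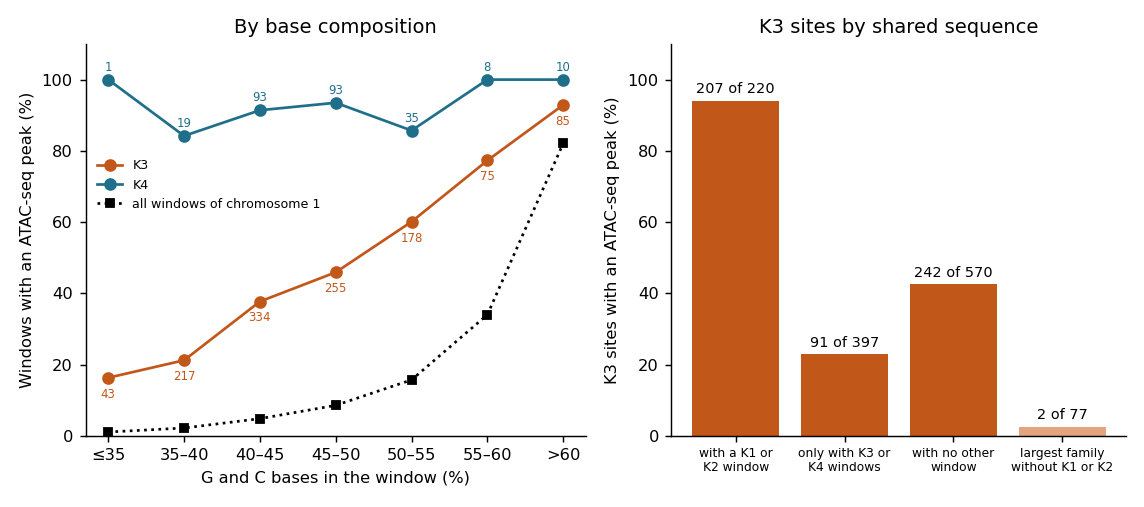
Left, percent of windows with an ATAC-seq peak (y axis) by percent of G and C bases (x axis) for K3 and K4 sites, with the number of sites beside each point, and for all windows of chromosome 1 (squares). Right, percent of K3 sites with a peak by the windows they share sequence with, where the pale bar is a subset of the second bar. The K3 share rose from 16.3% to 92.9% with G and C content while K4 stayed at 84.2% or above, and 207 of 220 K3 sites sharing with K1 or K2 windows had a peak compared with 2 of 77 in the largest separate family.

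How EHMT2 had been detected also divided the K3 sites. Of K3 sites from ChIP-seq alone 223 of 411 had a peak (54.3%), of those from ChIP-exo alone 273 of 728 (37.5%), and of those from both 44 of 48 (91.7%). Restricted to single-copy windows the counts were 175 of 324 (54%), 31 of 112 (27.7%) and 5 of 7. At K4 the corresponding counts were 211 of 229 (92.1%), 14 of 16 and 12 of 14, so the kind of assay separated K4 sites little. When K3 sites were ordered by mean EHMT2 signal and cut at the quartiles, 45 of 297 in the lowest (15.2%), 105 of 297, 150 of 296 and 240 of 297 in the highest (80.8%) had a peak. The same groups of K4, from lowest to highest, had 61 of 65, 57 of 65, 62 of 64 and 57 of 65. EHMT2 signal was an input of the clustering as well, and these counts are descriptive.

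The POU and ESRRB motifs were more frequent in K4 than in background windows, both over all windows and among those with a peak. Over all windows the KLF motif was too, and the SOX motif was not. Among windows with a peak both stood somewhat higher at K4, with 20.7% compared with 17.3% for KLF and 8.86% compared with 7.15% for SOX. The motifs were searched on both strands within 250 bp of the summit, none of the 8 words contains another, and a match is a sequence and not a binding site. The POU octamer ATGCAAAT, recognised by OCT4, lay in 23 of 237 K4 windows with a peak (9.7%), in 19 of 540 K3 windows with a peak (3.52%) and in 3.4% of 21247 background windows with a peak. It lay in 4.54% of all background windows. The ESRRB motif TCAAGGTCA, recognised by an orphan nuclear receptor of the naive state, lay in 11 K4 windows with a peak (4.64%), in 8 such K3 windows (1.48%) and in 1.42% of background windows with a peak. It also lay in 4 of the 22 K4 windows without a peak (18.2%), compared with 0.995% of background windows without one. The KLF motif GGGNGTGG lay in 49 K4 windows with a peak (20.7%), 44 K3 windows (8.15%) and 17.3% of background windows with a peak. Over all background windows the ESRRB motif lay in 1.02% and the KLF motif in 10.5%.
With a peak, K3 windows stood close to background windows with a peak for the octamer and the ESRRB motif and below them for the KLF motif. The share of K3 windows without a peak was 3.25% for the octamer, 2.01% for the ESRRB motif and 11.6% for the KLF motif, where background windows without a peak had 4.61%, 0.995% and 10.1%. The clustering used OCT4 and KLF4 signal, so that the octamer and the KLF motif are not independent of the split. ESRRB signal was not an input, but its motif may go with inputs that were used, and its independence of the split was not tested.

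The other motifs separated the clusters less. The SOX motif CATTGTT, of the family of SOX2, lay in 8.86% of K4 and 6.85% of K3 windows with a peak and in 7.15% of background windows with one. The AP-1 motif TGANTCA, bound by FOS and JUN proteins, lay in 13.1%, 12.4% and 13.9%. The CTCF core AGNNGGCGC lay in 4.64%, 5% and 4.93%, and at K3 sites without a peak in 2.32%. The CREB/ATF motif TGACGTCA was found in 2 K4 and 2 K3 windows with a peak. The short NFY motif CCAAT lay in 47.3%, 53.5% and 50.4%. Over all background windows, with or without a peak, the shares were 10.1% for SOX, 14.5% for AP-1, 1.02% for the CTCF core, 0.256% for CREB/ATF and 58.1% for NFY.
In the 3 windows printed above, the octamer near Mff lay 104 bp from the EHMT2 summit and 310 bp from the ATAC-seq summit. The ESRRB motif near Bard1, a gene for a partner of BRCA1, lay 164 and 540 bp away, at a site of 11.9-fold enrichment from 106 fragments (86.8 to 128). The KLF motif in capitals in Kcnt2 lay 152 and 133 bp away.

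**Figure D5:**
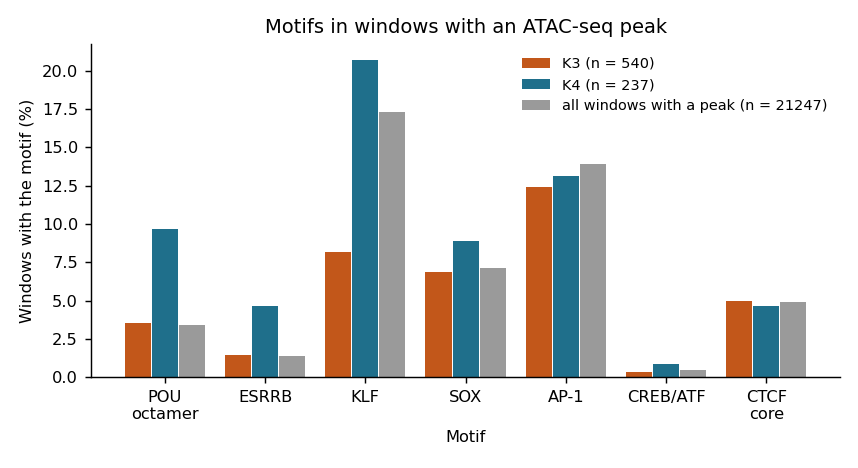
Percent of windows with an ATAC-seq peak that hold each of 7 motifs (y axis) for K3 (n = 540), K4 (n = 237) and all windows of chromosome 1 with a peak (n = 21247), leaving out the short NFY motif. The POU octamer (9.7% at K4, 3.52% at K3) and the ESRRB motif (4.64% and 1.48%) stand higher at K4, while AP-1 and the CTCF core are alike in all 3.

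Both clusters lay mostly outside gene starts. A K3 summit was between genes at 758 sites (63.9%), in an intron at 381 (32.1%), in an exon at 35 (2.95%) and within 500 bp of a protein-coding start at 13 (1.1%). For K4 the counts were 133 (51.4%), 101 (39%), 6 (2.32%) and 19 (7.34%), where background windows had 54.1%, 40.7%, 4.61% and 0.597%. The nearest protein-coding start was a median of 117429 bp from K3 and 54421 bp from K4 sites, compared with 92372 bp from a background window. Counting the starts of all annotated genes, the medians were 28172, 16228 and 24383 bp. At K3 the sites with a peak were farther from a protein-coding start than those without, with medians of 140102 and 98009 bp, whereas background windows with a peak were nearer than those without, with 47367 and 95988.5 bp. At K4 the medians were 58862 and 34423 bp.

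The share of sites with a peak was highest at gene starts. A peak lay at 12 of 13 K3 and all 19 K4 sites within 500 bp of a start, where 65.1% of background windows had one. Between genes the shares were 46.7% for K3 and 92.5% for K4, in introns 42.8% and 89.1%, and in exons 11 of 35 and 5 of 6. In the background they were 4.67% between genes, 5.42% in introns and 9.18% in exons. Median fold enrichment was 11.2 at the 12 K3 and 13.8 at the 19 K4 gene start sites, compared with 6.25 and 8.93 between genes.

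The K4 gene starts ran from a fold enrichment of 8.33 to 24.5. Apart from Gorab, Mff and Gdap1, they included Desi2, a peptidase gene, with a fold enrichment of 17.1 from 199 fragments, Gin1 with 16.9, Spag16, a sperm axoneme gene, with 15.8 and Ddx18, an RNA helicase gene, with 15.2. Wdr75, which encodes a protein of ribosome biogenesis, had 14.2, Zranb3, a gene of replication fork repair, had 13.8 from 159 fragments, Klhl20, an adaptor gene of a ubiquitin ligase, had 13.2, and Gtf3c3, which encodes a subunit of the RNA polymerase III factor TFIIIC, had 12. Maip1, Tmem183a and Cd55, the last a complement regulator, stood between 10.9 and 11.7, and Usf1, a transcription factor gene, at 10.4. The neural genes Syt14, a synaptotagmin, and Unc80, part of the sodium leak channel complex, had 13.9 from 129 and 13.5 from 62 fragments. The lowest was D1Pas1 with 8.33.

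The K3 gene starts with a peak ran from a fold enrichment of 5.55 to 15.7. Beside Taf1a they were Cr1l, a complement receptor-like gene, with 15.1 from 96 fragments, Scg2, which encodes a secretogranin of neuroendocrine granules, with 14.5 from 43, and Ncstn, a subunit gene of gamma-secretase, with 14.1 from 54. Serpinb5, a serpin gene of epithelia, had 13.0 from 41, and Cntnap5a, a neurexin family gene, had 12.3 from 30. Pex19, a gene of peroxisome assembly, had 10.1, Stau2, which encodes an RNA-transporting protein of neurons, had 9.71, Gm47955 had 9.46, Acbd6 had 7.57, Zdbf2, an imprinted gene, had 6.05 and Tmeff2, a transmembrane protein gene of the nervous system, had 5.55 from 11 fragments. The 1 K3 gene start without a peak was that of Gli2, a transcription factor of Hedgehog signalling, where the nearest peak began 272 bp from the EHMT2 summit.

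Listed genes of the nervous system were often linked to K3 or K4 sites, counting a site inside the gene or within 20 kb of its start. Of 30 such genes on chromosome 1, 25 were linked (83.3%), 20 to K3 (66.7%) and 10 to K4 (33.3%). Of all 1208 protein-coding genes 394 were linked (32.6%), 26.7% to K3 and 10.6% to K4. The list was chosen with earlier results of these data known. The listed genes are long, with a median of 249 kb compared with 27.8 kb for all, and when only the 20 kb around the start were counted 10 of the 30 (33.3%) and 271 of all (22.4%) were linked. The part of gene length was not tested beyond this. A peak lay at 26 of the 57 K3 sites and 11 of the 13 K4 sites linked to these genes, beside 45.5% and 91.5% of all K3 and K4 sites.
Erbb4, a receptor tyrosine kinase for neuregulins, had 10 K3 sites, of which 5 had a peak, with fold enrichments of 7.69 to 10.7, and 2 of these shared 1 peak. The peaks of 3 of the 5 also served K2 sites. Kcnt2 had 4 K4 sites, all with a peak, at 19.1, 9.54, 10.6 and 4.62, and 3 K3 sites, of which 1 had a peak at 5.34. Dnm3, a dynamin gene, had 7 K3 sites, 5 with a peak at 2.97 to 9.56, of which 2 again shared 1 peak and the highest was also the peak of a K1 site. In Nrp2, a semaphorin receptor gene, a K4 site had 11.4 from 74 fragments (58.1 to 92.9). In Adgrb3, an adhesion receptor gene of synapses, a K4 site had 9.02 and a K3 site 14.6 from 48 fragments (35.4 to 63.6), on a peak that also served a K2 site, and Tnr, a gene of the neural extracellular matrix, had a K4 site with 9.22. The K4 sites in Nmnat2 and Ptprn had no peak, and neither did any of the 3 K3 sites in Nos1ap.

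Of 34 developmental regulators on the list 10 were linked (29.4%), compared with 32.6% of all genes, and 5 (14.7%) compared with 22.4% when only the 20 kb around the start were counted. Of their sites 4 of 14 K3 and 4 of 7 K4 had a peak, where the clusters as a whole had 45.5% and 91.5%. In Eya1, a transcriptional regulator of ear and kidney development, both K4 sites had a peak, at 6.79 from 21 and 5.18 from 19 fragments, and 1 of 2 K3 sites had one at 6.61. Esrrg, a nuclear receptor gene, had a K4 site at 8.40 from 20 fragments and 3 K3 sites without a peak. In Epha4, an ephrin receptor gene, both K4 sites had no peak, with the nearest 263 and 779 bp away, while a K3 site had one at 9.30 from 31 fragments (21.1 to 44.0). At Tfap2d 1 of 2 K3 sites had a peak, at 7.94, which also served a K2 site, and the K3 sites at Gbx2, Lmx1a, Twist2 and Gli2 had none.
Of 6 stem cell genes 2 were linked (33.3%), close to the 32.6% of all genes. Counting only the 20 kb around the start, 1 was (16.7%), compared with 22.4%. Lefty1, a Nodal inhibitor, was linked to a K4 site 9933 bp from its start with a fold enrichment of 10.9 from 47 fragments (34.5 to 62.5). Nr5a2, a nuclear receptor of the pluripotency network, was linked to a K3 site with 4.16 from 8 fragments (3.45 to 15.8).

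The sites were spread along the chromosome. In stretches of 10 Mb the K3 share with a peak ran from 29.3% (17 of 58, 50 to 60 Mb) to 59.8% (52 of 87, 10 to 20 Mb). The K4 share was 100% in 11 of 20 stretches and lowest, at 10 of 15 (66.7%), between 70 and 80 Mb. The study's EHMT2-controlled clusters of genes active in 2-cell-like cells (2CLCs), which it calls ECORDs, number 5 on chromosome 1 and contained 20 K3 sites (1.68%) and 2 K4 sites (0.772%), compared with 1.92% of background windows. Of these, 6 K3 (30%) and both K4 sites had a peak, beside 45.5% and 91.5% of all K3 and K4 sites. Of background windows in ECORDs 3.93% had one. The ECORD with Khdrbs2, an RNA-binding protein gene of neurons, held 13 of the K3 sites, 4 with a peak.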

How the data were processed

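ATAC-seq was measured in 2 DMSO-treated clones of EHMT2-dTAG mESCs. The authors trimmed reads, aligned them to mm10 with STAR 2.7.10, writing multimapping reads at 1 place at random among the best, removed duplicates with Picard 2.26.0 and High Signal Regions, shifted fragments for Tn5, merged the clones and called peaks with MACS2 2.2.6. The deposited fold enrichment is the ratio of summit pileup plus 1 to local background plus 1, significance at the summit was deposited as −log10 p-value and −log10 q-value, and the deposited score was not used. Library totals were not analysed here. The fragment number of a peak was the whole number that fitted its fold enrichment and p-value best. The misfit in −log10 p-value was within 0.01 for 116778 peaks, and the numbers were recovered at 100.0% of 19461 simulated peaks. EHMT2 sites and ECORDs came from the study's tables. Where several peaks overlapped, that with the nearest summit was used. Genes were those of GENCODE vM21 on GRCm38, and 100-base stretches were counted over both strands of the genome. The members, gene lists and motifs were chosen with earlier results of these data known. Named sites were the 6 highest in fold enrichment, the 1 with fewest fragments, the 3 farthest from a peak and those nearest the window limit per cluster. Shared-sequence groups, motif sites printed and all gene start sites were added after values were seen. Python 3.11.15, NumPy 2.4.6, pandas 2.3.3, SciPy 1.17.1 and networkx 3.6.1 were used. Some single genes are not reported here.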

Additional observations from a re-analysis of the deposited data

How the results depend on the processing

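No paired analysis was possible because the deposited list merges both clones, and for the same reason neither clone could be left out. With no replicate spread, a value was taken as changed when it moved by over 1.5 times, and 36 of 44 alternatives stayed within this limit. All alternatives for the median fold enrichments, 10 for K3 and 9 for K4, and 7 of 8 for the K4 sites with a peak were among them. Numbers of sites with a peak were compared as counts and not as shares. A subset with fewer sites could thus exceed the limit by its size alone, and for these numbers the tallies do not show how the shares held. The main medians, 6.30 for K3 and 8.96 for K4, lie less than 1.5 times apart, so this limit cannot tell whether their difference held. Keeping only peaks that pass the q-value cut of 10 brought the medians to 9.15 for K3 and 9.89 for K4, which are much closer. The K4 median was the higher in every setting run for both clusters. The number of K3 sites with a peak, 540, fell to 237 with a −log10 q-value of at least 10, and to 357 when the ATAC-seq summit had to lie within 250 bp. Subsets with fewer sites gave 319 of 704 (45.3%) with at least 50% of 100-base stretches single-copy, 223 of 411 (54.3%) for ChIP-seq alone and 273 of 728 (37.5%) for ChIP-exo alone. The share of all K3 sites was 45.5%. For K4, ChIP-exo alone gave 14 of 16 (87.5%), beside 91.5% of all K4 sites. Median distances to a start became 28172 bp (K3) and 16228 bp (K4) with all annotated genes. Sharing of at least 100 stretches of 31 bases, added after seeing the data, gave 191 of 200 K3 sites with K1 or K2 sequence and 95 of 372 that share only with K3 or K4. Leaving out K3 sites on a peak of another cluster, also added then, gave 185 of 198 and 88 of 394. At 150 K3 sites the peak rested on at most 9 fragments, and fragments at sites without a peak were not measured here.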
